A study of Mus musculus with 1646 samples.

Results

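The 10 genes described here encode secreted factors of the VEGF, angiopoietin and angiopoietin-like families (*Vegfa*, *Vegfb*, *Vegfc*, *Vegfd*, *Pgf*, *Angpt1*, *Angpt2*, *Angptl1*, *Angptl2* and *Angptl4*). They were found by their Ensembl identifiers among 46517 genes counted in 1646 single cells of the mouse colon, and all 10 had a row. The cells came from male mice aged 10 to 20 weeks of 4 reporter lines, in which the promoter of the named gene drives a fluorescent protein: PdgfrbGFP (46.2% of the cells, 4 plates), Acta2GFP (34.4%, 2 plates), PdgfraGFP (13.8%, 2 plates) and Cspg4dsRED (5.53%, 1 plate). All lines share the C57Bl6/J background, no group was treated, and each line yields only the cells its reporter and a CD31-negative sort let through. Colon tissue of Acta2GFP mice was also digested with elastase. The labels give a cluster number from 1 to 8 for each cell and name no mouse, so the line was taken as the sample, and lines of different clusters can share mice.

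Clusters 1, 2, 5, 6 and 7 hold 1307 fibroblasts, and clusters 3, 4 and 8 hold the other 20.6% of the cells. These are pericytes and smooth muscle cells (SMC), called mural cells here, although the paper describes colon SMC in the mucosa that lie along no vessel. The fibroblast markers *Pdgfra*, *Col1a1*, *Dpt* and *Lum* summed to 2937 to 4942 counts per 500000 in the lines of the fibroblast clusters and to 92.9 to 785 in the mural clusters. Cluster 4 (8.63% of all cells) had the highest levels of the 3 pericyte markers, *Kcnj8* (489 counts per 500000), *Abcc9* (463.7) and *Higd1b* (54.98), beside mural *Rgs5* (3262) and smooth muscle *Acta2* (1047), and is called pericytes here. Clusters 3 (8.57%) and 8 (3.40%) were SMC, and cluster 8 had high *Cnn1* and *Actg2* but *Notch3* at 0.229 counts per 500000. Among fibroblasts, clusters 7, 5, 1, 6 and 2 held 13.5%, 25.8%, 29.3%, 2.73% and 7.96% of all cells, and *Cd34* was at 1293, 1026, 595, 30.2 and 41.3 counts per 500000 in that order. *Tnc* was at 16.9, 54.5, 542, 421.4 and 1972 in the same order. Cluster 2 carried all 4 apex fibroblast markers (*Tnc*, *Ptgs2*, *Il1rl1*, *Bmp7*) and is called apex-like. Crypt position itself was not measured, so the other fibroblasts are called by number.

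VEGF ligands act on receptor tyrosine kinases of the endothelium. VEGF-A, the main driver of blood vessel growth and permeability, signals through VEGFR2 (*Kdr*) and also binds VEGFR1 (*Flt1*), which is the receptor of VEGF-B and placental growth factor (*Pgf*). VEGF-C and VEGF-D are made as precursors, are cut by proteases and act mainly through VEGFR3 (*Flt4*) on lymphatic vessels, which in the gut carry absorbed fat. Angiopoietin 1 is the agonist of the TIE2 receptor (*Tek*) that stabilises vessels, and angiopoietin 2 can oppose it. Angiopoietin-like proteins share the fold of the angiopoietins but do not bind TIE2. ANGPTL4 inhibits lipoprotein lipase, and its gene responds to fatty acids through PPARs.

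Levels are counts per 500000. Each cell was scaled to a total of 500000, cells of 1 cluster and 1 line were averaged, and the mean ± SD was taken over lines, leaving out those with under 10 cells of the cluster. Depth ranged from 47598 to 1494292 counts per cell, with a median of 253778 in fibroblasts and 221082 in mural cells, and the Cspg4dsRED cells were the shallowest at 113721. No molecular identifiers were used, so counts are amplified reads and intervals on shares cover counting error only. A share of cells with a count needs a background: the epithelial gene *Epcam* was seen in 17.8% of fibroblasts and in 15.04% of mural cells, and the endothelial gene *Cdh5* in 10.8% and 17.99%. A count also followed the wells around a cell. *Angpt2* had a count in 18.2% of fibroblasts whose row and column of the plate held as many or more *Angpt2* counts than the plate's median, and in 4.12% of those with fewer. For *Angptl1*, in cells outside clusters 5 and 7, these shares were 24.3% and 7.52%. Shares at these levels were read as background.

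Per kilobase of exon, *Angptl2* was the highest of the 10 in every fibroblast cluster and in cluster 8, at 42.2 to 101.5 counts per 500000 and kb. *Angpt2* led in pericytes at 58.04 and *Pgf* in cluster 3 SMC at 32.4 on the same scale. *Angptl2* was also the only one with a count in most cells of every cluster, from 78.7% in cluster 3 to 98.8% in cluster 5. The other 9 were unevenly spread between cells: in the cluster with its highest level, the top 10% of cells held from 46.8% (*Pgf* in cluster 3) to 86.1% (*Angptl1* in cluster 5) of the total, and the median cell had at most 7.04 counts per 500000 (*Angpt2* in pericytes). A median of 2 (cluster 8) to 4 of the 10 genes had a count in a cell.

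**Figure D1:**
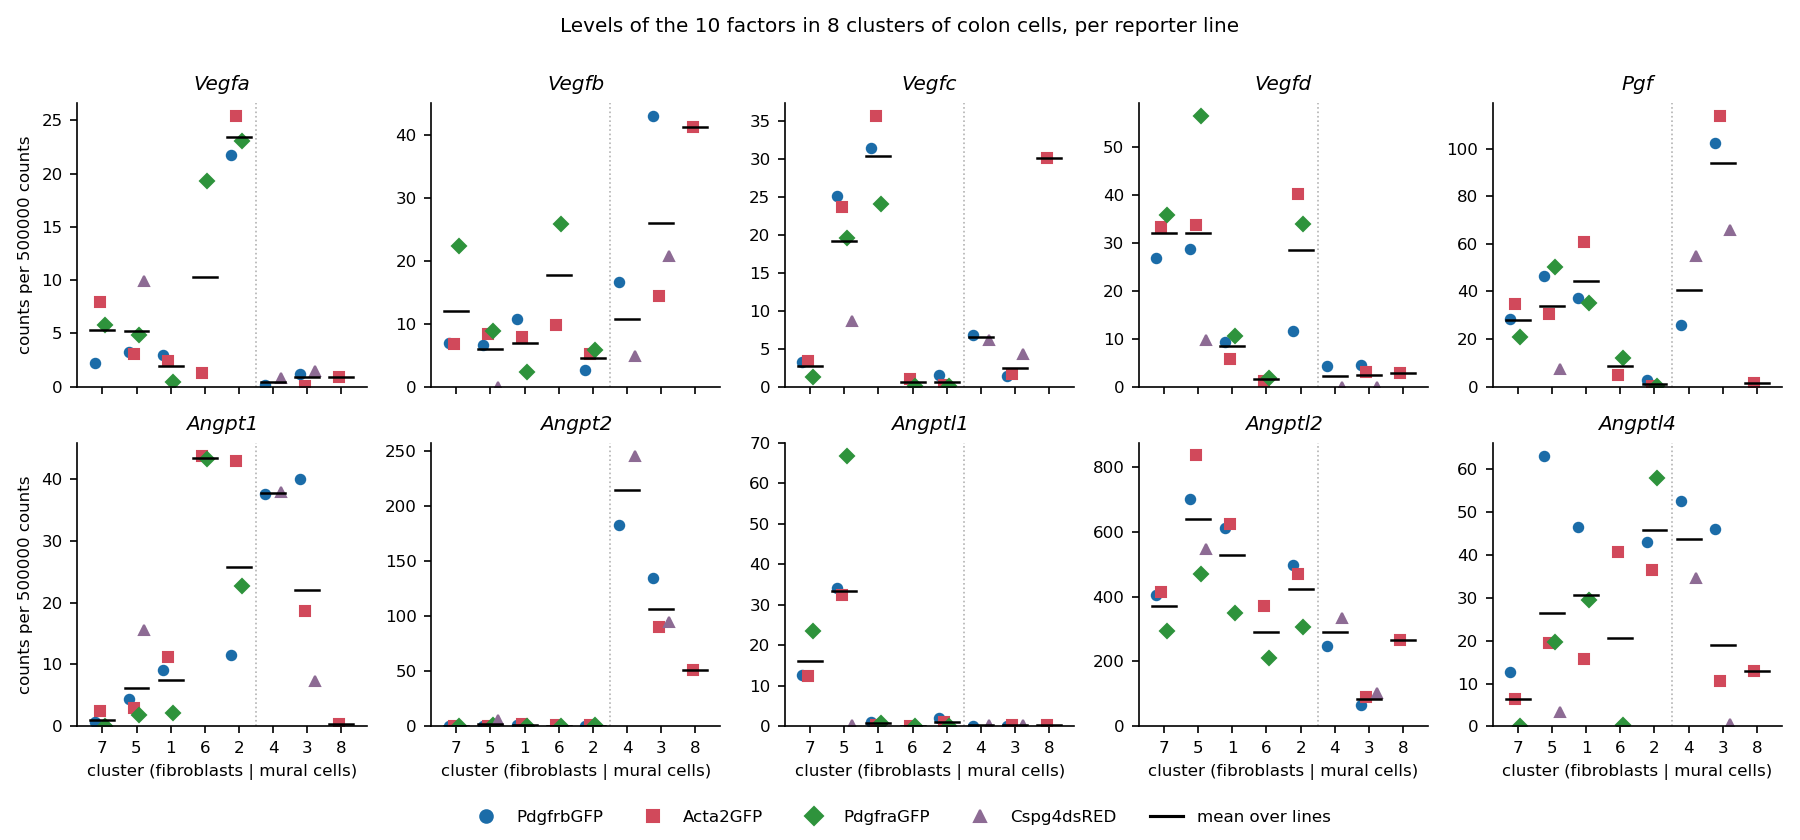
Each panel shows 1 gene. The x axis gives the cluster, with the 5 fibroblast clusters left of the dotted line and the 3 mural clusters right of it, and the y axis gives counts per 500000 counts on a linear scale from 0 that differs between panels. Points are reporter lines with at least 10 cells of the cluster and the black bar is their mean. *Vegfa* stands out in cluster 2, *Vegfc* in clusters 1, 5 and 8, *Pgf* in cluster 3, *Angpt2* in the mural clusters and *Angptl1* in clusters 5 and 7.

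Raw counts were summed per line and compared by the quasi-likelihood test of edgeR, with p-values adjusted by Benjamini-Hochberg over all genes tested and a threshold of 0.05. Folds come from this fit, in which cluster 2 is set against the mean log2 coefficient of clusters 1, 5 and 7, so they differ from ratios of the levels given beside them, and a call does not mean a difference from each of these clusters. Since the clusters were drawn from the same counts, these tests are not independent of the clusters, and their p-values measure the spread between lines. Between fibroblasts (4 sums) and mural cells (3 sums), 2 of the 10 genes passed, against 6.57% of all 19173 genes tested: *Angptl2* was higher in fibroblasts and *Angpt2* was higher in mural cells. Fibroblast and mural sums of a line deviated together, and with line as a replicate block these 2 also passed (adjusted p = 0.0284 and 0.00802), while the genes called overall went from 1259 to 590. Between apex-like cluster 2 and clusters 1, 5 and 7, 3 of the 10 passed, against 6.28% of 21739 genes: *Vegfa* was higher in cluster 2, and *Pgf* and *Vegfc* were lower. None of the 10 passed between clusters 7 and 1 (0.488% of genes), between pericytes and cluster 3 SMC (0.819%), or between the SMC of clusters 8 and 3 (1.01%), where 3, 1 and 4 of them had an unadjusted p under 0.05. In DESeq2, 2, 0 and 3 of them passed in these comparisons, and in limma 0, 0 and 0.

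**Figure D2:**
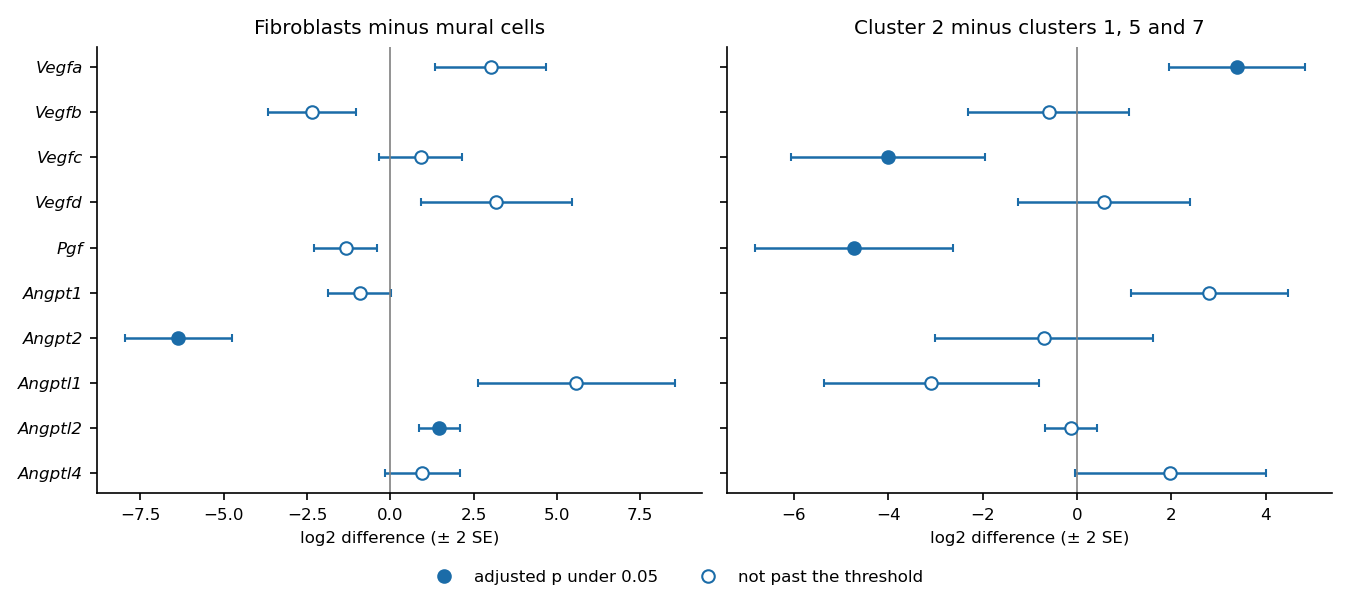
Log2 differences of the 10 genes (x axis) with 2 standard errors on each side, for fibroblasts minus mural cells (left) and for cluster 2 minus clusters 1, 5 and 7 (right). Filled points have an adjusted p under 0.05 over all genes: *Angpt2* and *Angptl2* on the left, *Vegfa*, *Vegfc* and *Pgf* on the right.

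*Vegfa* (ENSMUSG00000023951; GRCm38 chromosome 17, 46016993 to 46032369, minus strand) was highest in apex-like cluster 2. There it had 21.8 counts per 500000 in PdgfrbGFP, 25.4 in Acta2GFP and 23.02 in PdgfraGFP (mean 23.4 ± 1.83 SD, n = 3 lines). All 3 lines lay above every line of every other cluster, but the PdgfrbGFP value spans plates at 8.11 (10 cells) and 33.7 (17 cells). On 1 PdgfraGFP plate, cluster 6 (14 cells) was at 35.8 and cluster 2 at 26.5. In cluster 6 the 2 lines were far apart, at 1.26 in Acta2GFP and 19.3 in PdgfraGFP. Of the 45 cells of cluster 6, 6 had a *Vegfa* count, and 5 cells held 99.8% of the level. Clusters 7 and 5 had 5.33 ± 2.91 (SD, n = 3) and 5.26 ± 3.22 (SD, n = 4), cluster 1 had 1.92 ± 1.37 (SD, n = 3), and no mural cluster exceeded a mean of 0.874. A *Vegfa* count was present in 52.7% of cluster 2 cells (95% Clopper-Pearson interval 43.8 to 61.5) and in 16.98% of cluster 1 cells (13.7 to 20.6). After thinning each cell to 50000 counts these shares were 41.2% and 8.73%.

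In the fit, *Vegfa* was 10.4-fold higher in cluster 2 than in clusters 1, 5 and 7 (log2 difference 3.39 ± 0.72 SE, adjusted p = 0.00553 in edgeR), and cluster 2 was higher in 3 of 3 lines and 5 of 5 plates. Without Acta2GFP the adjusted p was 0.109 and without PdgfrbGFP it was 0.0946, with log2 differences of 3.36 and 3.46. Between fibroblasts and mural cells the level was 7.35 ± 2.80 (SD, n = 4) against 0.828 ± 0.267 (SD, n = 3), and the lines did not overlap, with a log2 difference of 3.01 ± 0.83 SE that missed the threshold (adjusted p = 0.0634). Over the 21 cluster-by-line sums, the genes with the pattern most like *Vegfa* were *Ptgs2* (Pearson r = 0.96), *Lipg* (0.92) and *Sdc4* (0.88). Dissociation genes moved with the same comparison: 14 of 16 immediate early and heat shock genes were higher in cluster 2, where 6.28% of all genes passed. The summed level of the 16 was 11920 to 18647 counts per 500000 per line in cluster 2, against 1778 to 7402 in the lines of clusters 1, 5 and 7. Their part in the *Vegfa* difference was not tested. Among the 5 plates with at least 10 cells of cluster 2, the one with the lowest mean log2 level of these genes (5.97) had the lowest *Vegfa*, 8.11 counts per 500000, and the one with the highest (9.15) had the highest, 33.7. In cluster 1, the 4 PdgfrbGFP plates had mean log2 levels of 4.02, 7.69, 3.79 and 4.71 and *Vegfa* at 3.89, 2.89, 0.226 and 0.

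Of 15 hypoxia response genes, 3 were higher in cluster 2 than in clusters 1, 5 and 7 and none was lower. Of all genes, 6.28% passed in this comparison, in either direction. The list's median log2 difference was 0.57 against -0.09 over all genes. The 3 were the glucose transporter *Slc2a1* (227.8 ± 62.2 counts per 500000 in cluster 2, log2 difference 4.36 ± 0.40 SE, adjusted p = 7.06e-07), *Epas1*, which encodes HIF-2α (3.13 ± 0.37 SE, adjusted p = 1.51e-05), and *Ankrd37* (3.95 ± 0.87 SE, adjusted p = 0.00766). *Hif1a*, *Pgk1*, *Ldha* and *Bnip3* were among the 12 that did not pass.

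*Vegfb* (ENSMUSG00000024962; chromosome 19, 6982473 to 6987651, minus strand) had its highest levels in SMC. In cluster 3 it had 42.9 counts per 500000 in PdgfrbGFP, 14.4 in Acta2GFP and 20.8 in Cspg4dsRED, and in cluster 8, which had 1 line, it had 41.3. Fibroblast clusters ranged from 4.56 ± 1.70 (cluster 2) to 17.8 ± 11.3 (cluster 6), and the lines of neighbouring clusters overlapped at each of the 7 steps of the order. By class, the fibroblast lines lay between 0.747 and 9.09 and the mural lines between 12.4 and 30.5. The classes therefore did not overlap, but the log2 difference of -2.36 ± 0.66 SE missed the threshold (adjusted p = 0.0680 in edgeR).

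*Vegfc* (ENSMUSG00000031520; chromosome 8, 54077606 to 54187096, plus strand) was highest in cluster 1. There it had 31.5 counts per 500000 in PdgfrbGFP, 35.7 in Acta2GFP and 24.1 in PdgfraGFP (mean 30.4 ± 5.84 SD). The SMC of cluster 8 were at the same level, 30.2 in their 1 line, and the ranges of clusters 1 and 8 overlapped. Cluster 5 came next with 25.1, 23.7 and 19.6 in the same 3 lines and 8.72 in Cspg4dsRED. Pericytes had 6.52 ± 0.452 (SD, n = 2), cluster 7 had 2.67 ± 1.202 and cluster 3 had 2.49 ± 1.61. Clusters 2 and 6 were the lowest, at 0.604 ± 0.7998 and 0.545 ± 0.644, and no cell of either reached 20 counts of *Vegfc*.

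In apex-like cluster 2, *Vegfc* was 16.1-fold lower than in clusters 1, 5 and 7 (log2 difference -4.01 ± 1.03 SE, adjusted p = 0.0213 in edgeR), in 3 of 3 lines and 5 of 5 plates. This call was lost without any 1 of the lines PdgfrbGFP (adjusted p = 0.0605), Acta2GFP (0.316) or PdgfraGFP (0.103), and in limma on the mean of log values per cell (0.111), with the same direction each time. Over the 13 alternatives the log2 difference ran from -5.47 to -0.871. Cluster 7, the other *Cd34*-high fibroblasts beside cluster 5, was lower than cluster 1 in 3 of 3 lines and 5 of 5 plates as well (log2 difference -3.43 ± 1.06 SE), with an adjusted p of 0.236. SMC of cluster 8 had a log2 difference of 3.79 ± 1.24 SE over those of cluster 3 (adjusted p = 0.200), and both plates with both clusters showed it.

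*Vegfd* (ENSMUSG00000031380; chromosome X, 164373378 to 164402650, plus strand) was high in 3 fibroblast clusters and low in the others. Cluster 7 had 26.8 counts per 500000 in PdgfrbGFP, 33.3 in Acta2GFP and 35.9 in PdgfraGFP, and cluster 5 had 28.7, 33.8 and 56.4 there and 9.63 in the 13 cells of Cspg4dsRED. Cluster 2 had 11.5, 40.2 and 33.8. The lines of these 3 clusters overlapped, and all lay above those of cluster 6 (1.52 ± 0.360) and of every mural cluster (means of 2.12 to 2.81). Cluster 1, at 8.51 ± 2.50, overlapped only with the Cspg4dsRED line of cluster 5. *Vegfc* and *Vegfd* thus had different highest clusters among fibroblasts: *Vegfd* was higher in cluster 7 than in cluster 1 in 3 of 3 lines and *Vegfc* was lower in 3 of 3, and neither difference passed the threshold. By class, *Vegfd* had 20.6 ± 8.39 in fibroblasts (SD, n = 4) and 4.24, 2.85 and 0 in the 3 mural lines, with a log2 difference of 3.18 ± 1.13 SE (adjusted p = 0.140). *Igfbp6*, an insulin-like growth factor binding protein, had the pattern most like *Vegfd* (r = 0.91 over 21 sums).

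The genes that process VEGF-C and VEGF-D or carry lymphatic guidance formed a list of 9. *Ccbe1*, whose product brings VEGF-C to its protease, was highest in cluster 1 (15.1 ± 8.20 counts per 500000), as was *Svep1*, a large matrix protein of lymphatic development (932 ± 110). Against clusters 1, 5 and 7, cluster 2 was lower in *Svep1* (log2 difference -2.99 ± 0.87 SE, adjusted p = 0.0449) and in the proprotein convertase *Pcsk5* (-2.81 ± 0.64 SE, adjusted p = 0.00976), and higher in *Plau*, which encodes urokinase (5.91 ± 0.47 SE, adjusted p = 2.55e-07), and in *Adamts3*, the protease that cuts VEGF-C (3.61 ± 0.92 SE, adjusted p = 0.0205). The other 5 did not pass, and of all genes 6.28% passed in this comparison. *Adamts3* had 30.7 ± 5.38 counts per 500000 in cluster 2 and at most 4.76 elsewhere, so the cluster with the most *Adamts3* was among the lowest in *Vegfc*. *Plau* and *Pcsk5* also had higher levels in SMC of cluster 8, which had only the Acta2GFP sum, than in those of cluster 3 (log2 differences 6.36 and 4.06).

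*Pgf* (ENSMUSG00000004791; chromosome 12, 85166635 to 85177790, minus strand) had its highest level in cluster 3 SMC. The lines were at 102.6 counts per 500000 in PdgfrbGFP, 113.7 in Acta2GFP and 65.9 in Cspg4dsRED (mean 94.1 ± 24.98 SD), and all lay above every line of the other clusters. Clusters 1, 4, 5 and 7 followed at 44.4 ± 14.1, 40.5 ± 20.6, 33.7 ± 19.5 and 28.1 ± 7.00, and their neighbours in this order overlapped. Cluster 6 had 8.52 ± 5.11. Cluster 2 and the SMC of cluster 8 were the lowest: cluster 2 had 2.96 in PdgfrbGFP, 0.416 in Acta2GFP and 0.0610 in PdgfraGFP, and cluster 8 had 1.34. In these 2 clusters a count was present in 20.6% and 23.2% of cells, and in 6.11% and 9.26% after thinning, and their counts also followed the wells around them (9.72% of cells with a count beside high wells, 1.59% beside low ones).

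*Pgf* was 26.4-fold lower in cluster 2 than in clusters 1, 5 and 7 (log2 difference -4.72 ± 1.05 SE, adjusted p = 0.00802 in edgeR), in 3 of 3 lines and 5 of 5 plates. The call was lost without Acta2GFP (adjusted p = 0.187) and in limma on the mean of log values per cell (0.154). Over the 13 alternatives the log2 difference ran from -7.45 to -1.31, so the size of the fold depended on the processing. The 2 SMC clusters differed by -6.17 ± 1.98 SE on the log2 scale (cluster 8 minus cluster 3), which missed the threshold at 1 sum of cluster 8 (adjusted p = 0.184). Between the classes, *Pgf* was at 27.8 ± 14.6 in fibroblasts and 54.6 ± 8.33 in mural cells, without overlap of the lines (log2 difference -1.34 ± 0.47 SE, adjusted p = 0.137). *Kazn* had the pattern most like it (r = 0.92), and *Cystm1* was also among the closest (0.86).

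**Figure D3:**
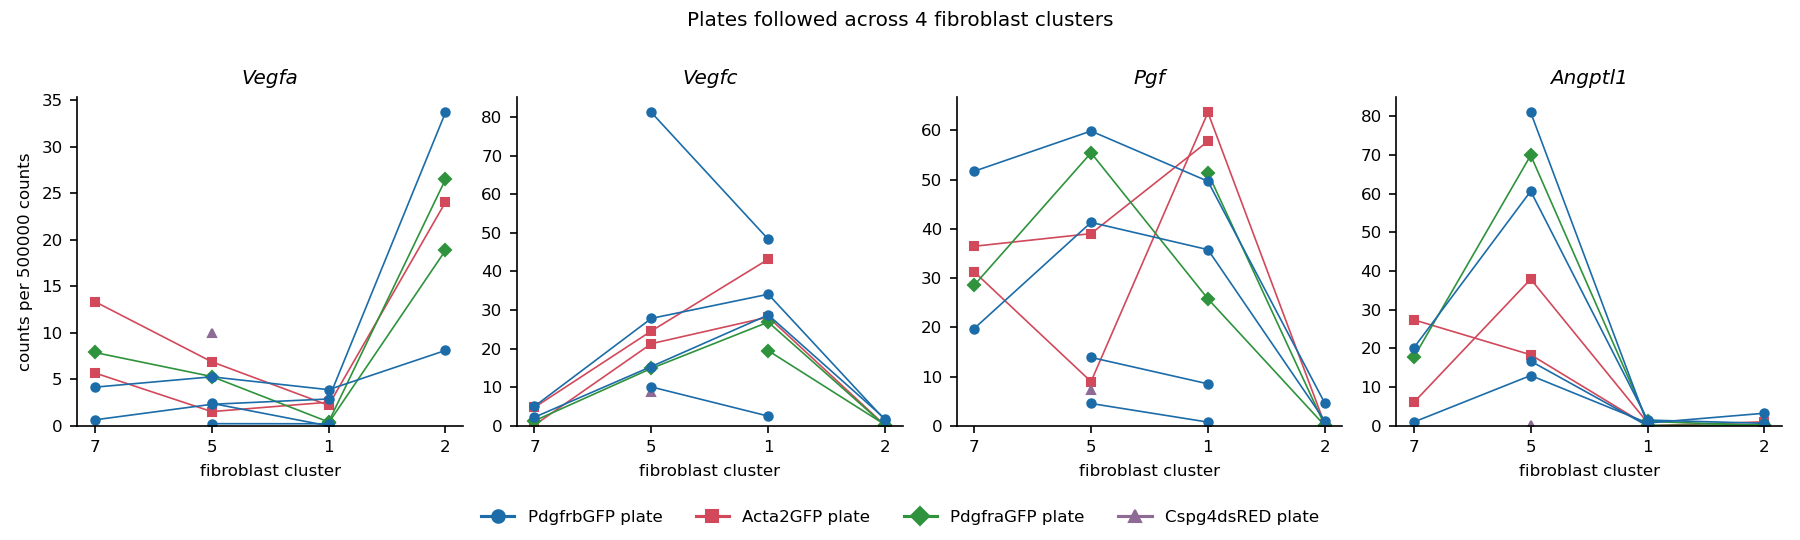
Counts per 500000 counts (y axis, linear from 0, scale differs between panels) of 4 genes in fibroblast clusters 7, 5, 1 and 2 (x axis). Each point is a plate with at least 10 cells of the cluster, and lines join the values of 1 plate. In each of the 5 plates with a cluster 2 point, *Vegfa* was higher in cluster 2 than in the plate's points for clusters 7, 5 and 1, and *Vegfc* and *Pgf* were lower.

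*Angpt1* (ENSMUSG00000022309; chromosome 15, 42424723 to 42676977, minus strand) was found in fibroblasts and in mural cells. Cluster 6 had 43.7 counts per 500000 in the 10 cells of Acta2GFP and 43.1 in PdgfraGFP, whose plates were at 15.9 (12 cells) and 66.4 (14 cells). Pericytes had 37.6 in PdgfrbGFP, where plates with at least 10 pericytes were at 70.8 and 9.27, and 37.9 in Cspg4dsRED. Cluster 2 had 11.4, 42.8 and 22.7 in PdgfrbGFP, Acta2GFP and PdgfraGFP, which overlapped with pericytes and with cluster 3 SMC (39.9, 18.7 and 7.36 in PdgfrbGFP, Acta2GFP and Cspg4dsRED). Clusters 1, 5 and 7 had 7.45 ± 4.74, 6.17 ± 6.30 and 1.09 ± 1.26, and cluster 8 had 0.370. The level of cluster 6 depended on the weighting, since it was 56.98 as a mean over all its 45 cells.

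Cluster 2 was higher in *Angpt1* than clusters 1, 5 and 7 in 3 of 3 lines and 5 of 5 plates, at the edge of the threshold (log2 difference 2.81 ± 0.84 SE, adjusted p = 0.0503 in edgeR). It passed without the Cspg4dsRED line, whose only fibroblast sum here is 13 cells of cluster 5 (3.40, adjusted p = 0.00872). Cluster 7 minus cluster 1 was -2.79 ± 1.23 SE and cluster 8 minus cluster 3 was -5.40 ± 2.34 SE on the log2 scale, with adjusted p values of 0.496 and 0.431. Exons of the antisense gene *Gm17473* cover 14.2% of the exon bases of *Angpt1*, and without stated strand their reads cannot be told apart.

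*Angpt2* (ENSMUSG00000031465; chromosome 8, 18690263 to 18741562, minus strand) was the clearest mural gene of the 10. Pericytes had 183.04 counts per 500000 in PdgfrbGFP and 245.3 in Cspg4dsRED, cluster 3 SMC had 134.3 in PdgfrbGFP, 90.1 in Acta2GFP and 94.3 in Cspg4dsRED, and cluster 8 SMC had 51.2. These 3 clusters did not overlap with each other, and no fibroblast cluster had a mean over 1.87. A count was present in 75.4% of pericytes (95% interval 67.4 to 82.2), 68.8% of cluster 3 SMC (60.5 to 76.3) and 30.4% of cluster 8 SMC (18.8 to 44.1), against 11.9% of fibroblasts, which is within the background shares above. The log2 difference between fibroblasts and mural cells was -6.37 ± 0.80 SE, or 82.4-fold (adjusted p = 0.00217 in edgeR), and it passed under all 13 alternatives, with adjusted p values up to 0.0465.

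Within mural cells the order was pericytes, cluster 3, cluster 8, and pericytes exceeded cluster 3 SMC in 2 of 2 lines and 3 of 3 plates, but that difference did not pass the test. Of the 16 dissociation genes, 8 were lower in pericytes than in cluster 3 SMC, where 0.819% of all genes passed. In fibroblasts 3 of them were lower than in mural cells, where 6.57% passed. The part of the dissociation genes in the differences of *Angpt2* was not tested. *Mcam*, a mural adhesion molecule, had the pattern most like *Angpt2* (r = 0.96 over 21 sums), followed by *Nmnat2* and *Trarg1* (0.95 each). Both angiopoietins were present in pericytes: of the 49 pericytes with a count of *Angpt1*, 75.5% also had one of *Angpt2*, and of the 93 without, 75.3%. In cluster 3 these shares were 67.9% and 69.4%. *Angpt2* lies within *Mcph1* on the opposite strand and shares no exon with it.

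*Angptl1* (ENSMUSG00000033544; chromosome 1, 156838562 to 156861078, plus strand) was found mainly in clusters 5 and 7. Cluster 5 had 34.2 counts per 500000 for PdgfrbGFP, 32.4 for Acta2GFP, 66.8 for PdgfraGFP and 0.225 for the 13 cells of Cspg4dsRED, and cluster 7 had 12.6, 12.4 and 23.6 in the first 3. Every other cluster had a mean of 1.08 or less. Cluster 7 was above cluster 1 in 3 of 3 lines and 5 of 5 plates, with a log2 difference of 4.86 ± 1.33 SE (29.1-fold) and an adjusted p of 0.149 in edgeR. It passed in 4 of 13 alternatives, among them the fit without Cspg4dsRED (adjusted p = 0.0265). Fibroblasts minus mural cells gave 5.58 ± 1.48 SE (adjusted p = 0.0544), and 0.0157 without Cspg4dsRED, in which the fibroblast level was 0.104. For cluster 2 against clusters 1, 5 and 7 the log2 difference was -3.09 ± 1.14 SE (adjusted p = 0.134). *Gsta3* (r = 0.91), a glutathione transferase, *Ackr4* (0.90), a chemokine scavenging receptor, and *Lmo2* (0.89) had the most similar patterns. *Angptl1* lies within *Ralgps2* on the opposite strand, and 16.4% of its exon bases are shared with the antisense gene *Gm37802*.

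*Angptl2* (ENSMUSG00000004105; chromosome 2, 33216069 to 33247717, plus strand) encodes a secreted factor linked to inflammation. It was highest in cluster 5, with 700.2 counts per 500000 for PdgfrbGFP, 837 for Acta2GFP, 468.8 for PdgfraGFP and 548 for Cspg4dsRED. Clusters 1, 2 and 7 had 529 ± 155.003, 424.03 ± 104.04 and 371.3 ± 67.6, and all neighbours from cluster 5 down to cluster 8 (265.1) overlapped. Cluster 3 SMC stood apart at 64.3, 91.3 and 101.3 in PdgfrbGFP, Acta2GFP and Cspg4dsRED. The fibroblast lines lay between 352.8 and 606 and the mural lines between 170.5 and 223.7, and fibroblasts were 2.78-fold higher (log2 difference 1.47 ± 0.31 SE, adjusted p = 0.0198 in edgeR). The call was lost without PdgfrbGFP (adjusted p = 0.141), Acta2GFP (0.0895) or Cspg4dsRED (0.0619), with log2 differences of 1.28, 1.58 and 1.49. Pericytes and cluster 8 SMC were each above cluster 3 SMC, by 1.06 ± 0.38 SE and 1.07 ± 0.46 SE on the log2 scale, with adjusted p values of 0.247 and 0.416. PdgfraGFP had the lowest level of its lines in clusters 7, 5, 1, 6 and 2. The gene lies within *Ralgps1* on the opposite strand and shares no exon with it.

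*Angptl4* (ENSMUSG00000002289; chromosome 17, 33773750 to 33781830, minus strand) was spread over all clusters. Cluster 2 had 43.1 counts per 500000 in PdgfrbGFP, 36.5 in Acta2GFP and 57.9 in PdgfraGFP, and pericytes had 52.6 in PdgfrbGFP and 34.7 in Cspg4dsRED. In cluster 5 the lines ran from 3.29 in Cspg4dsRED over 19.4 in Acta2GFP and 19.6 in PdgfraGFP to 63.1 in PdgfrbGFP, and in cluster 3 from 0.467 in Cspg4dsRED to 46.05 in PdgfrbGFP. Cluster 7 was the lowest at 6.40 ± 6.30. From cluster 2 down to cluster 8 every neighbour in the order overlapped, and no comparison gave *Angptl4* an unadjusted p under 0.05. Plates of a line also differed: in cluster 1 of Acta2GFP it was 2.63 on 1 plate and 28.6 on the other, where the median depth of the cells was 113371 and 270653.

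Of 10 genes of lipid and PPAR response, 2 were higher in cluster 2 than in clusters 1, 5 and 7 and 1 was lower. Of all genes, 6.28% passed in this comparison. The list's median log2 difference was -0.22 against -0.09 over all genes. The lipid droplet protein *Plin2* (271.4 ± 41.7 counts per 500000 in cluster 2, log2 difference 3.05 ± 0.33 SE, adjusted p = 3.93e-06) and the fatty acid carrier *Cd36* (4.43 ± 0.85 SE, adjusted p = 0.00231) were higher. *Lpl*, whose product is the target of ANGPTL4, was highest in cluster 1 (222.9 ± 45.7) and lower in cluster 2 than in clusters 1, 5 and 7 (log2 difference -2.24 ± 0.64 SE, adjusted p = 0.0394).

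The receptors of the VEGF ligands were nearly absent from these CD31-negative cells: *Flt1*, *Kdr* and *Flt4* had means of at most 4.44, 1.82 and 1.12 counts per 500000 in any cluster. Their co-receptors were not. *Nrp1* was highest in pericytes (374.7 ± 22.1, n = 2) and cluster 1 (253.04 ± 22.1, n = 3). *Nrp2*, the co-receptor linked to VEGF-C, was highest in cluster 2 (213.6 ± 40.1), higher there than in clusters 1, 5 and 7 (log2 difference 2.41 ± 0.34 SE, adjusted p = 0.000110) and lower in cluster 7 than in cluster 1 (-3.15 ± 0.51 SE, adjusted p = 0.00488). *Tek*, the angiopoietin receptor, had 179.5 ± 43.2 in cluster 7 and 110 ± 24.6 in cluster 5, against at most 13.7 in the others, and was higher in fibroblasts than in mural cells (log2 difference 4.56 ± 0.81 SE, adjusted p = 0.00997). The other 9 endothelial markers were at 0.204 (*Erg*) to 6.66 (*Esam*) in cluster 7 and at 0.360 (*Erg*) to 11.9 ± 12.8 (*Cldn5*) in cluster 5, with *Pecam1* at 5.80 and 7.07 and *Cdh5* at 0.236 and 0.634, and their part in the *Tek* level was not tested. *Angpt1* was at 1.09 and 6.17 in these clusters. *Tie1* reached 39.1 ± 40.8 in pericytes, with a spread over the 2 lines as large as the mean. In all, 1 of 10 receptors and binding partners passed between the classes (*Tek*), where 6.57% of all genes passed. Between cluster 2 and clusters 1, 5 and 7, 3 of 10 passed (*Nrp2*, *Tek* and *Lpl*), against 6.28% of all genes.

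Other members of the families had places of their own. *Angpt4*, a further TIE2 ligand, had 97.3 ± 19.5 counts per 500000 in cluster 3 SMC and at most 18.1 elsewhere, and was higher in mural cells (log2 difference -2.85 ± 0.54 SE for fibroblasts minus mural cells, adjusted p = 0.0129). *Angptl6* was highest in cluster 8 SMC (68.8, 1 line) and *Angptl7* in cluster 7 fibroblasts (50.3 ± 28.6), and neither passed a test. *Angptl8*, known from liver and fat, had at most 0.881 in any cluster. Of 15 other angiogenic factors and inhibitors, 14 were tested between the classes, where 3 were higher in fibroblasts (the thrombospondin *Thbs2*, the chemokine *Cxcl12* and *Serpinf1*, which encodes PEDF) and 2 in mural cells, *Pdgfb* among them (log2 difference -6.37 ± 1.34 SE, adjusted p = 0.0212). In that comparison 6.57% of all genes passed. Against clusters 1, 5 and 7, cluster 2 was higher in *Col18a1*, the source of endostatin (2.22 ± 0.27 SE), and in *Hgf* (3.04 ± 0.63 SE), and lower in *Serpinf1* (-4.83 ± 1.12 SE) and *Ccn2* (-3.13 ± 0.34 SE). For *Hgf* this rests on clusters 5 and 7, with 3.35 and 1.501 counts per 500000, since cluster 1 had 66.8 ± 38.7 and cluster 2 had 42.3 ± 11.7.

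**Figure D4:**
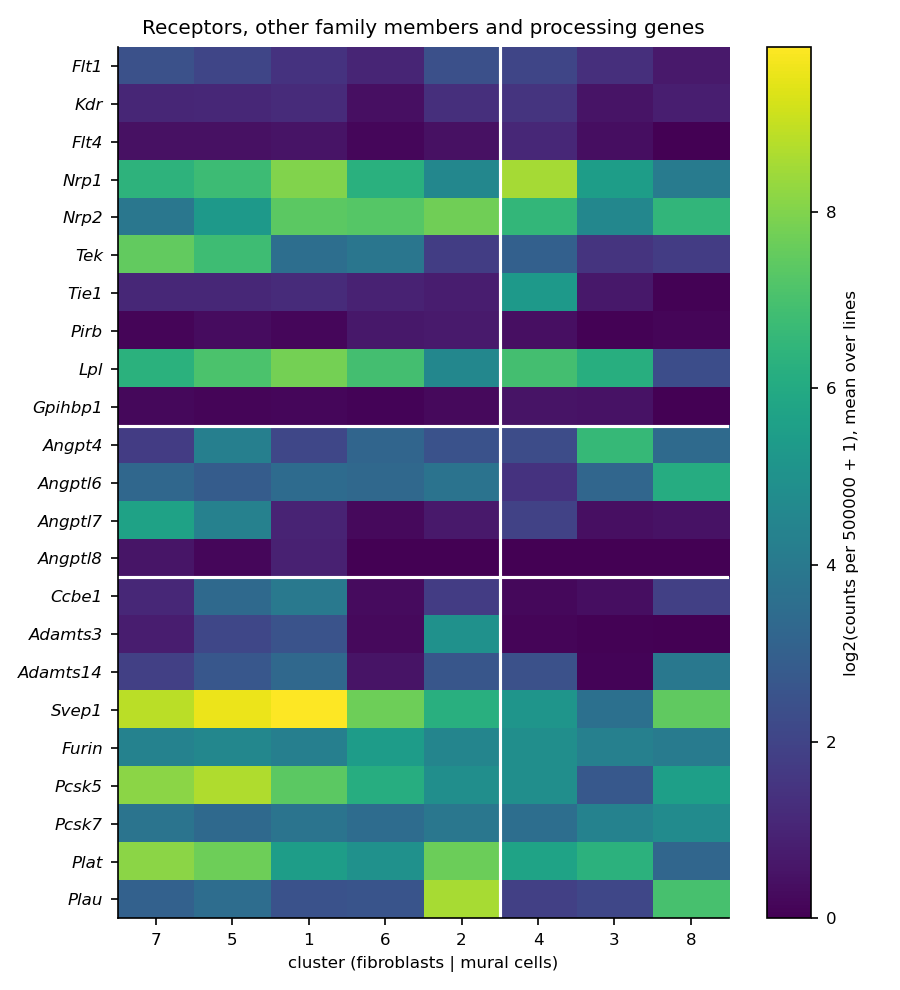
Mean levels over lines, as log2(counts per 500000 + 1) by colour, of receptors and binding partners (top block), 4 other family members (middle) and genes of VEGF-C and VEGF-D processing and lymphatic guidance (bottom) in the 8 clusters (x axis, fibroblasts left of the white line). Colours are to be compared along a row, since genes differ in length. *Tek* is high in clusters 7 and 5, *Nrp1* in clusters 4 and 1, *Angpt4* in cluster 3, and *Plau* and *Adamts3* in cluster 2.

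Reporter lines were compared within cluster 1, the largest cluster, with 8 plates as samples (4 of PdgfrbGFP and 2 each of Acta2GFP and PdgfraGFP). None of the 10 genes passed edgeR's test of the line term, and neither did any of 15700 genes (0.0%), where 694 genes, *Angpt2* among them, had an unadjusted p under 0.05. DESeq2 called 0.713% of the genes and none of the 10. The lines go with the dissociation and the sort, and the plates of a line may share a mouse, so line, digestion and mouse cannot be told apart. In cluster 1, *Vegfc* ran from 2.53 to 48.3 counts per 500000 over the 8 plates and *Pgf* from 0.767 to 63.6, and the lowest value of each was that of a PdgfrbGFP plate with 12 cells.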

How the data were processed

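SmartSeq2 libraries of single colon cells were analysed. The authors trimmed the reads, aligned them with TopHat2 to the GRCm38 genome, counted per gene with featureCounts (strand not stated), filtered cells by counts, genes and markers, and deposited raw counts per gene and cell; per the labels' processing notes, bcl2fastq, Bowtie, Bowtie2 and Subread were also used. Of 46517 genes, 46005 had a GENCODE vM21 symbol; 92 spike-in rows (1.36% of counts) were left out. Counts were summed per line and class or cluster (at least 10 cells; 7 and 21 sums, the latter of 2202988 to 85478239 counts), scaled by TMM, kept where filterByExpr passed, and tested in edgeR 4.0.16 (R 4.3.3) with Benjamini-Hochberg adjustment; all cluster contrasts came from 1 fit, so that the lone sum of cluster 8 is assumed to vary like the others. No doublet caller was run. Thinned shares leave out 11 cells under 50000 counts.

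Members and gene lists were chosen with earlier results of these data known. Of each list, up to 4 called genes per comparison with the smallest adjusted p are named, and for each member the genes of highest Pearson r over 21 sums among 8389 genes with a mean of at least 10 counts per 500000. List genes named for their level without a call (*Ccbe1*, *Flt1*, *Kdr*, *Flt4*, *Nrp1*, *Tie1*, *Angptl6*, *Angptl7*, *Angptl8* and 4 hypoxia genes) were chosen after their values were seen. Some genes of the lists and of like pattern are not reported here. Alternatives were DESeq2 1.42.0, limma 3.58.1, no filter, line as block, other sums and left-out plates or lines. Same-line sums deviated together (r = 0.152 to 0.176 for fibroblasts and mural cells, 0.120 to 0.170 for clusters 7 and 1, 0.0556 to 0.137 for cluster 2 with clusters 1, 5 and 7, and 0.167 and 0.177 for the 2 lines with clusters 4 and 3). The main fits nevertheless did not pair sums by line. Their folds and p-values therefore ignore this pairing, and line as replicate block was run only as an alternative. On simulated data, the test recovered 66% of genes changed 16-fold between the classes (18626 genes), 67% for cluster 2 (20592 genes), 60% for cluster 7 (20570), 33% for cluster 4 (20581), 21% for cluster 8 (20556) and 70% for lines (15006). Of genes changed 4-fold it recovered 23%, 15%, 11%, 3%, 0% and 17% in the same order.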

Additional observations from a re-analysis of the deposited data

Results flagged for a closer look

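In groups of 4 lines or plates, 40 sets of values were checked for a sample far from the others, a check that chance alone passes in about 1 of 20, and 2 were found. *Angpt2* in the 13 cluster 5 cells of Cspg4dsRED was at 5.62 counts per 500000, and in the other 3 lines at 0.374 to 1.04; the same plate holds 63 mural cells with *Angpt2* levels of 94.3 and 245.3 counts per 500000 in clusters 3 and 4. *Angpt1* in cluster 1 was at 35.3 on 1 PdgfrbGFP plate of 12 cells and at 6.33 to 9.08 on the other 3 plates of that line.

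A difference between clusters pointed one way in both plates of 1 line and the other way in both plates of another for 3 of 30 sets of values, and none of these was tested. With so few plates per line, signs drawn at random would also give some such sets. *Vegfb* in cluster 2 minus cluster 1 was 6.12 and 1.86 counts per 500000 on the PdgfraGFP plates and -2.25 and -4.94 on the PdgfrbGFP plates with both clusters. *Vegfa* in cluster 7 minus cluster 5 was 6.47 and 4.16 on the Acta2GFP plates and -1.11 and -1.67 on the same PdgfrbGFP plates. *Angpt2* in the same 2 clusters differed by 0.118 and 0.239 on these Acta2GFP plates and by -0.124 and -0.338 on these PdgfrbGFP plates, all at levels of its background in fibroblasts.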

How the results depend on the processing

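The number of the 10 genes called between fibroblasts and mural cells was 2, and 6 in DESeq2, 7 with plates as samples, 4 in limma on means of log values per cell, and 1 to 4 with 1 line left out. For cluster 2 against clusters 1, 5 and 7 it was 3, and 5 in DESeq2 and 0 to 5 with 1 line left out, with 0 without Acta2GFP. For cluster 7 against cluster 1 it was 0, and 2 in DESeq2, 2 with plates as samples, 2 with only these clusters fitted, and 0 to 1 with 1 line left out. For cluster 8 against cluster 3 it was 0, and 3 in DESeq2, 2 with plates and 1 with only these clusters; without Acta2GFP it could not be fitted. It was 0 for pericytes against cluster 3 SMC, and for lines within cluster 1, under every alternative run. The cause of these changes was not tested. Without plate 073s or 075s the counts were the same as with them. The 20 differences with an unadjusted p under 0.05 kept their direction in every alternative run, with 11 calls lost and 37 gained. The other 30 changed sign 36 times. With line as replicate block, *Angpt1* also passed for cluster 2 (4 of 10 genes, adjusted p = 0.0214), and the share of all genes called for cluster 7 against cluster 1 went from 0.488% to 0.773%. No other call on the 10 changed.

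Of all genes tested, DESeq2 called 15.3% between the classes, 9.48% for cluster 2, 2.86% for cluster 7, 5.57% for cluster 4, 5.14% for cluster 8 and 0.713% between lines, against 6.57%, 6.28%, 0.488%, 0.819%, 1.01% and 0.0% in edgeR. The share of calls higher in the first group was, in DESeq2 and edgeR, 45.9% against 70.4% for cluster 2, 53.1% against 75.8% for cluster 4 and 46.3% against 87.2% for cluster 8. With plates as samples, 16.1%, 10.4%, 2.61%, 2.70% and 3.84% were called in the first 5 of these comparisons, in limma 6.62%, 6.35%, 1.32%, 2.95% and 3.71%, and with 1 line left out 1.81 to 5.81%, 2.00 to 7.41%, 0.0709 to 0.813%, 0.226 to 0.974% and 0.485 to 1.64%. With at least 3 cells per sum, 1.92% were called for cluster 8, and with only the clusters compared, 2.49% for cluster 7. The median log2 difference of all genes was -0.103 for cluster 7 and -0.187 for cluster 8 in edgeR. Shallow cells (11 under 50000 counts) and sums of as few as 10 cells limit the low levels.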
